A study of Mus musculus with 8 samples.

Results

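Genes of the translocon, the COPI and COPII coats and Golgi trafficking were taken from both expression tables by the start of their symbol: Sec with a number, Ssr, Cop, Tmed, Trappc, Arf, Golga or Stx. There were 87 of them among the 14709 genes listed in either table. The rule reads symbols and no measured value. By what their products are known to do, 83 of the 87 fell into 11 groups, and the other 4 (Sec1, Sec14l1, Sec14l2 and Sec14l4) were caught by their symbols alone and belong to none of these complexes.

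Secretory and membrane proteins enter the endoplasmic reticulum (ER) through the Sec61 translocon, which works with the translocon-associated protein complex (TRAP) and the signal peptidase. COPII coats then carry cargo from ER exit sites towards the Golgi, COPI coats carry proteins back and between Golgi cisternae, and p24 proteins (Tmed genes) ride in both kinds of vesicle as cargo receptors. TRAPP complexes and golgins tether the vesicles, and SNARE proteins such as syntaxins fuse them with their target. Primitive endoderm, the cell layer next to the epiblast of the blastocyst, is known as a strongly secretory tissue that lays down a basement membrane.

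RNA-seq was done on mouse embryonic stem cells (mESCs) in 2 experiments with 4 groups of 2 samples. All cells were of the C57BL/6(F) x 129/sv(M) strain at 3.5 days by their labels, cultured on gelatin in serum with leukaemia inhibitory factor. In the sorted cells, cells positive or negative for KLF3-GFP came from a reporter line in which the constitutive CAGGS promoter drives the N-terminal part of KLF3, without its DNA-binding domain, joined to GFP, with DsRed to mark the construct. Both groups carry the construct, and 500 cells per sample went into Smart-seq2, in which full-length cDNA of few cells is amplified. In the overexpression experiment, R26 cells carried codon-optimised Klf3 or GFP at the Col1a1 locus under doxycycline control, and KLF3 or GFP was induced for 72 hours before sequencing of poly(A) RNA. The reporter line and the inducible lines were picked as colonies or clones, and the number of clones behind the samples is not given in the sources used here.

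All values are FPKM (fragments normalised for transcript length and for depth, a level per length) that the authors deposited as 1 mean per group. The spread between the 2 samples of a group and the read depth are unknown, so no value below carries an SD or a p-value, and no difference could be set against replicate error. Change means the difference of log2(FPKM + 1) between the group means of an experiment, KLF3-GFP positive minus negative or KLF3 minus GFP. Upregulated and downregulated mean past 2-fold on this scale, which understates the change of low genes, for genes whose level averaged 1 FPKM or more over both groups (the minimum). The FPKM summed to 904629 and 947917 in negative and positive cells, and to 612621 and 834882 in GFP- and KLF3-overexpressing cells. Levels of the 2 experiments were never compared with each other, since their libraries were made differently. Exons of 15 of the genes overlap those of another protein-coding gene on the other strand and exons of 3 overlap one on the same strand, and the partners of those past 2-fold are named below. Klf3 was listed at 107 FPKM in negative and 122 FPKM in positive cells, and at 58.7 FPKM with GFP and 47.8 FPKM with KLF3, but neither the reporter construct nor the codon-optimised transgene need be counted in that entry, so it does not check the labels.

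In sorted cells, genes of protein entry into the ER and of the coats were higher in KLF3-GFP positive cells. Of 75 trafficking genes above the minimum, 26 (34.7%) were upregulated, against 13.8% of all 9212 genes. The other 11 of the 86 listed were under the minimum, among them Sec31b, Tmed6, Tmed8, Trappc10, Sec22c and Stx17, and Stx11 was not listed. Only 1, Trappc13, was downregulated, against 8.32% of all genes. The median change was 0.67, against 0.03 over all genes, and 61 of the 75 lay above 0. Together the 86 trafficking genes of this table made up 0.448% of the summed FPKM in negative and 0.750% in positive cells. In bulk samples such as these, fewer cells of a type and less RNA per cell cannot be told apart.

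In the overexpression experiment few of these genes passed 2-fold. Of 83 above the minimum, 3 (Sec61b, Sec61g and Sec62) were upregulated, against 6.6% of all 11179 genes, and 9 were downregulated, against 10.1%; Sec31b, Tmed6, Stx11 and Sec1 were under the minimum. Their median change was -0.28, beside -0.18 over all genes, and this shift of all genes is removed by median-ratio scaling. Under that scaling 6 (7.23%) were upregulated and 3 (3.61%) downregulated, against 10.4% and 6.22% of all genes. Of the members past 2-fold, 25% were upregulated without scaling (3 up, 9 down) and 66.7% with median-ratio scaling (6 up, 3 down). The share was 57.1% with quantile normalization (4 up, 3 down) and 75% after removal of the trend with genomic span (6 up, 2 down). These shares rest on few genes. Over all genes past 2-fold the same share was 39.4%, 62.6%, 53.6% and 57.5%, so the share turned with these steps over all genes too. The trafficking genes made up 0.465% of the summed FPKM with GFP and 0.410% with KLF3.

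**Figure D1:**
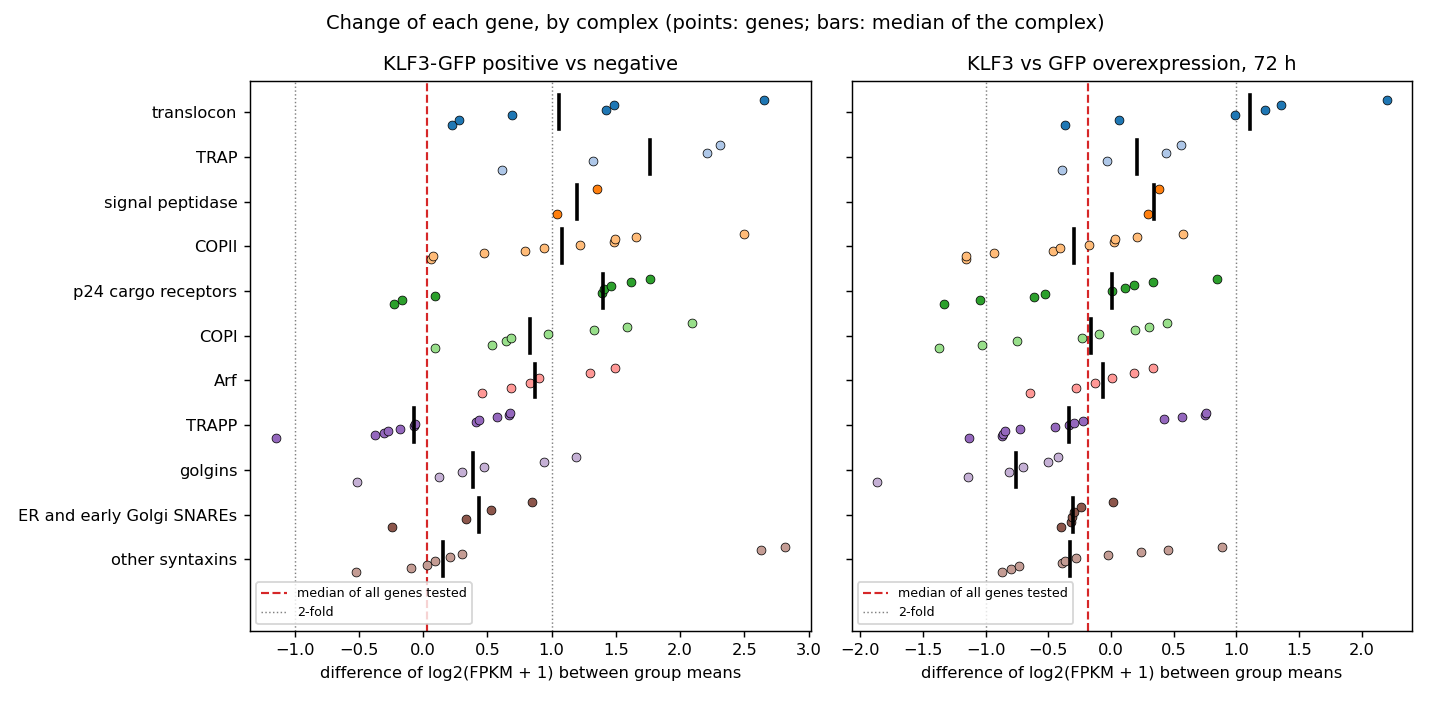
Change of log2(FPKM + 1) of each trafficking gene above the minimum, grouped by complex, in sorted cells (left) and overexpressing cells (right), each point 1 gene and each black bar the median of a complex. In sorted cells the medians of the translocon, TRAP, the signal peptidase, COPII and p24 genes lie above 1, while TRAPP lies at -0.07; in overexpressing cells only the translocon median, 1.11, does.

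Cell type markers moved with both comparisons. Over all genes, 13.8% were upregulated and 8.32% downregulated in sorted cells, and 6.6% and 10.1% in overexpressing cells. All 10 primitive endoderm markers were upregulated in both, with summed levels of 42.5 FPKM in negative and 1513 FPKM in positive cells, and of 172 and 676 FPKM with GFP and KLF3. Dab2, Foxa2, Lama1, Pdgfra and Sox7 reached the minimum only through positive cells, and Foxa2, Pdgfra and Sox7 only through KLF3-overexpressing cells. Foxa2 was at the lowest value, 0.1 FPKM, in negative cells. Of the trophectoderm markers, Krt8 and Krt18 were upregulated in sorted cells among 4 above the minimum, and those and Hand1 among 5 in overexpressing cells. Hand1, at 0.83 FPKM with GFP and 4.16 FPKM with KLF3, reached the minimum only through KLF3-overexpressing cells. Tfap2c went the other way without passing 2-fold, at 2.40 and 0.77 FPKM in sorted cells (-0.94) and at 26.2 and 13.1 FPKM in overexpressing cells (-0.95). Eomes changed by 0.44 and 0.13. Of 8 pluripotency markers, 5 were downregulated in sorted cells, where their sum was 21339 FPKM in negative and 11250.2 FPKM in positive cells, most of it Dppa5a (20569 FPKM in negative cells), which did not pass 2-fold. In overexpressing cells 3 were downregulated, the median change was -0.78, and the sum was 6242 FPKM with GFP and 8182 FPKM with KLF3. Most of that sum was again Dppa5a, at 3794 and 6334 FPKM. Only 2 of the 8 lay above 0, Dppa5a and Pou5f1 (883 and 990 FPKM). Of 8 feeder fibroblast markers, 3 were listed in sorted cells, none above the minimum, and 4 in overexpressing cells, with 1 above it; they summed to 0.81 and 0.61 FPKM in sorted cells and to 3.23 and 3.93 FPKM in overexpressing cells. The part of these cell types in the results on trafficking genes was not tested.

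Promoters were read for the genes of the complexes because several of them are known targets of the unfolded protein response. RefSeq promoter windows on GRCm38.p6, each 300 bases long, matched 73 of the 87 genes. The unfolded protein response element TGACGTGG, searched on both strands, stood in the windows of 6 of them (8.22%): Sec24d and Sec23a of COPII, Copb1 and Copb2 of COPI, Arf1 and the syntaxin Stx5a. It stood in 86 of the 8727 genes with a promoter window that were above the minimum in either table (0.985%) and in 0.714% of all genes with a window. The windows of the 5 genes with a single promoter window are shown with this element, or its reverse complement CCACGTCA, in capitals, to show where it lies. They are Sec24d on the plus strand at chr3:123267246-123267545, Sec23a on the minus strand at chr12:59011968-59012267, Copb2 on the plus strand at chr9:98563481-98563780, Copb1 on the minus strand at chr7:114254631-114254930 and Stx5a on the plus strand at chr19:8741174-8741473.
Sec24d: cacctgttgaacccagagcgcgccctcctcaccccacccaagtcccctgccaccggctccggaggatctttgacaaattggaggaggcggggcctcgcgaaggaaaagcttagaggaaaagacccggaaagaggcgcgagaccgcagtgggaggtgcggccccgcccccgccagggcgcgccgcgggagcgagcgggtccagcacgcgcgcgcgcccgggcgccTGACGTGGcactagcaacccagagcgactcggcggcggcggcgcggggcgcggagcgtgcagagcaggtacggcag
Sec23a: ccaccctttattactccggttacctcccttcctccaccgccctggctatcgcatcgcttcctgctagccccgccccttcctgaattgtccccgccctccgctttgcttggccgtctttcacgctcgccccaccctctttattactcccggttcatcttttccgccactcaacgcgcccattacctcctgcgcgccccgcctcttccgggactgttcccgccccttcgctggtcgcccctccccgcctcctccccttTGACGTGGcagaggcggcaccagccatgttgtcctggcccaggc
Copb2: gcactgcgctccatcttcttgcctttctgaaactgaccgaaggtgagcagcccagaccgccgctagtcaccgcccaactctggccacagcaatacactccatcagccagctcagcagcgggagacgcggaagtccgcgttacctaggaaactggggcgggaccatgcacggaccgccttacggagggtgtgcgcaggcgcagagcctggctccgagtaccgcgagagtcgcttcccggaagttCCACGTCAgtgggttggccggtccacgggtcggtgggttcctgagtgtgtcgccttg
Copb1: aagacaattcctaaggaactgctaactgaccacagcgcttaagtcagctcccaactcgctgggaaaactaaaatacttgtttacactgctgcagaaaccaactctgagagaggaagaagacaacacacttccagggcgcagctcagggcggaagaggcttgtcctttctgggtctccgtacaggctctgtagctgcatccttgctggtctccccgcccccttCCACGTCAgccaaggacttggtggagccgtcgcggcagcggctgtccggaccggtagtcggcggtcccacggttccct
Stx5a: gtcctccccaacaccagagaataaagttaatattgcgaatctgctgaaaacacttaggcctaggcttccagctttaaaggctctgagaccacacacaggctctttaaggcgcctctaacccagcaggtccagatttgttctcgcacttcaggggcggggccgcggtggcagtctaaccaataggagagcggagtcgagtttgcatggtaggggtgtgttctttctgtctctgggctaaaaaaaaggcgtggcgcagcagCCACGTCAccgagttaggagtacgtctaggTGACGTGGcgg

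Each window holds 250 bases before the RefSeq start and 50 after it. The centre of the element lay 22 bases before that start in Sec24d, 3 before it in Copb2, 24 before it in Copb1 and 11 after it in Sec23a. Stx5a held 1 copy on each strand, both after the start. The deposited loci of Sec24d and Copb2 begin further upstream, so by those loci the element lies after the start in both genes. Among members with a window, the element stood in 3 of 21 upregulated in sorted cells (Sec24d, Sec23a and Copb2) and in 3 of 42 others above the minimum. The longer ER stress element (ERSE) stood in 0 of the 73 genes and in 0.183% of the 8727 genes. Its core CCACG, which also lies inside the reverse complement of TGACGTGG, stood in 61.6% of the members and 53.8% of the 8727 genes. The CACCC box bound by Kruppel-like factors, as CCACACCC, stood in 2 members (Arf1 and Stx2, 2.74%) and in 4.41% of the 8727 genes, and the shorter CACCC in 52.1% and 67.3%. These matches are descriptions of letters in short windows and not sites of binding.

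Of the translocon genes, 3 of 6 were upregulated in sorted cells, all 6 lay above 0 and the median was 1.06. Sec63, the membrane co-chaperone that brings the chaperone BiP to the channel (chr10:42761496-42832514 in mm10), was at 2.84 FPKM in negative and 23.1 FPKM in positive cells, a ratio of 8.14 and a change of 2.65. Sec62, which works beside it in the import of completed proteins, went from 25.7 to 74.0 FPKM (change 1.49). Sec61a1, the pore-forming alpha subunit, went from 15.0 to 42.0 FPKM (1.42). The small subunits Sec61b and Sec61g were already among the most abundant members, at 500.1 and 979 FPKM in negative cells, and their changes were 0.69 and 0.23. The changes within the channel thus ran from 0.23 for Sec61g to 1.42 for Sec61a1.

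With KLF3 overexpression the translocon was the group with the highest median, 1.11, and its 3 upregulated genes were Sec61b, Sec61g and Sec62. Sec61g was at 104 FPKM with GFP and 483 FPKM with KLF3 (change 2.2), and Sec61b at 87.4 and 206 FPKM (1.23); Sec61b did not pass 2-fold with quantile normalization. Sec62 was at 23.6 and 61.9 FPKM, a change of 1.36, which made it the only trafficking gene upregulated in both experiments. Sec63 stood just inside the 2-fold limits, at 17.8 and 36.2 FPKM (0.99). It passed them with a pseudocount of 0.1, a floor of 0.1, median-ratio scaling (1.19), quantile normalization and removal of the trend with genomic span. In those settings Sec63 too was upregulated in both experiments. So was Tmed3 under median-ratio scaling (1.35 in sorted and 1.04 in overexpressing cells) and with quantile normalization. Sec24d was so after removal of the trend with genomic span (2.38 and 1.05). The place of Sec62 as the only such gene thus depends on the scale. The pore itself did not pass 2-fold: Sec61a1 was at 48.1 and 50.3 FPKM, and its paralogue Sec61a2 at 26.2 and 20.03 FPKM.

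TRAP and the signal peptidase, which sit beside the channel and act on the entering chain, were upregulated in 5 of 6 genes in sorted cells. Ssr4, the delta subunit of TRAP on the X chromosome (chrX:73787028-73790830), was at 167 FPKM in negative and 829.8 FPKM in positive cells (2.31). Ssr3, the gamma subunit, was at 12.1 and 59.7 FPKM (2.21), and Ssr1, the alpha subunit, at 5.95 and 16.4 FPKM (1.32). Ssr2, the beta subunit, was at 310.5 and 476 FPKM, a change of 0.62 that did not pass 2-fold. The subunits of 1 complex thus differed in level within a group mean, from 5.95 to 310.5 FPKM in negative cells. The catalytic subunits of the signal peptidase, Sec11a (239 and 494 FPKM, 1.04) and Sec11c (119 and 306 FPKM, 1.36), were both upregulated, with Sec11a just past the limit. Its exons overlap those of Nmb on the same strand, at 7.59 and 11.3 FPKM. In overexpressing cells none of these 6 genes passed 2-fold, and their changes ran from -0.39 for Ssr3 to 0.56 for Ssr4. Ssr2 was at 280.4 and 381 FPKM (0.44), Ssr1 at 13.1 and 12.8 FPKM (-0.03), Sec11a at 39.4 and 51.8 FPKM (0.39) and Sec11c at 17.4 and 21.6 FPKM (0.30).

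**Figure D2:**
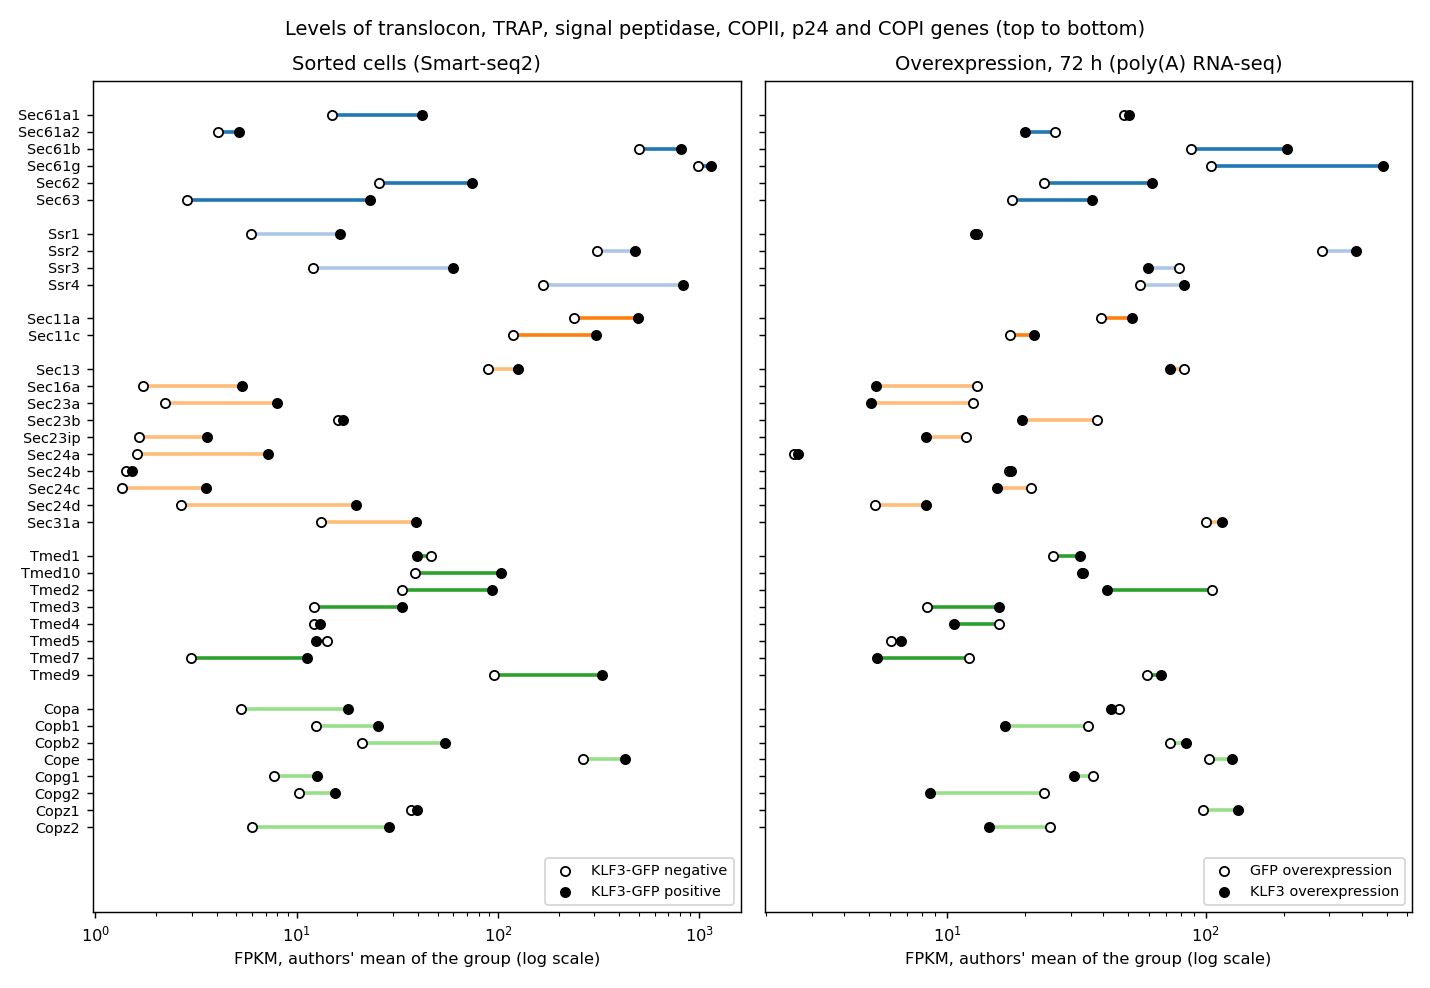
FPKM of the translocon, TRAP, signal peptidase, COPII, p24 and COPI genes above 1 FPKM in sorted cells (left) and of the same genes in overexpressing cells (right) on log axes, with open circles for KLF3-GFP negative or GFP-overexpressing cells, filled circles for KLF3-GFP positive or KLF3-overexpressing cells, and a line between the authors' means of a gene. In sorted cells the filled circle lies to the right for all genes but Tmed1 and Tmed5; in overexpressing cells it lies on either side, far to the left for Copg2, Tmed2 and Sec23a.

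The COPII coat is built from the cargo-binding inner layer of Sec23 and Sec24 and the outer cage of Sec13 and Sec31, placed by the scaffold Sec16. In sorted cells 5 of 10 COPII genes were upregulated and none downregulated, and all 10 lay above 0 with a median of 1.08. Sec24d, 1 of the 4 Sec24 cargo adaptors (chr3:123267455-123365641), was at 2.65 FPKM in negative and 19.6 FPKM in positive cells, a ratio of 7.40 and a change of 2.5. Sec24a was at 1.60 and 7.18 FPKM (1.65), Sec31a of the outer cage at 13.2 and 39.2 FPKM (1.5), Sec23a at 2.21 and 7.97 FPKM (1.48), and Sec16a at 1.73 and 5.36 FPKM (1.22). Sec13, which is also part of the nuclear pore, was at 89.6 and 125 FPKM (0.48), and Sec23ip, a partner of Sec23 at exit sites, at 1.64 and 3.58 FPKM (0.79). Many COPII genes were low in negative cells, and the log2(FPKM + 1) scale understates such changes: with a pseudocount of 0.1 the median of the group was 1.43.

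The paralogues of the inner coat did not move alike in sorted cells. The summed FPKM of the 4 Sec24 genes went from 7.03 to 31.8, and the share of Sec24d in it from 37.7% to 61.6%. Sec24b was at 1.42 and 1.52 FPKM, and its share went from 20.2% to 4.77%. Sec23a made up 12.1% of the Sec23 sum in negative and 32.0% in positive cells, while Sec23b stood at 16.1 and 17.0 FPKM. Since FPKM is per length, these shares compare levels of different genes within a group mean. Sec31b, the second Sec31 gene, was under the minimum, at 0.27 and 0.16 FPKM.

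In overexpressing cells the COPII genes had a median of -0.29 and none was upregulated. Sec16a was at 13.0 FPKM with GFP and 5.29 FPKM with KLF3, and Sec23a at 12.6 and 5.09 FPKM, both changes of -1.16. Sec23b went the same way, from 37.9 to 19.4 FPKM (-0.93), without passing 2-fold, so that the share of Sec23a was 24.9% and 20.8%. Sec24d was at 5.24 and 8.29 FPKM (0.57), and its share of the Sec24 sum was 11.4% with GFP and 18.8% with KLF3, while that sum stood at 46.1 and 44.2 FPKM. Sec31a was at 100.03 and 116 FPKM (0.21). Under median-ratio scaling Sec16a and Sec23a no longer passed 2-fold.

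The p24 genes split by member in sorted cells. Tmed9 was at 95.1 FPKM in negative and 326 FPKM in positive cells (1.77), Tmed7 at 2.97 and 11.2 FPKM (1.62), Tmed2 at 33.2 and 93.1 FPKM (1.46), Tmed10 at 38.6 and 104 FPKM (1.40) and Tmed3 at 12.1 and 33.3 FPKM (1.39). These 5, which include Tmed2 and Tmed10, the core members of p24 complexes, were all that passed 2-fold. The other 3 above the minimum did not: Tmed1 was at 46.6 and 39.8 FPKM, Tmed4 at 12.2 and 13.0 FPKM, and Tmed5 at 14.1 and 12.4 FPKM. The exons of Tmed5 overlap those of Mtf2 on the other strand, which was at 212 and 109 FPKM, and Smart-seq2 carries no strand. Tmed1 overlaps Dnm2 in the same way (5.39 and 9.36 FPKM), and Tmed7 overlaps Ticam2 on its own strand (0.27 and 0.1 FPKM). Tmed6 and Tmed8 were under the minimum.

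In overexpressing cells Tmed2 was at 106 FPKM with GFP and 41.4 FPKM with KLF3 (-1.33), and Tmed7 at 12.1 and 5.34 FPKM (-1.05), with Ticam2 at 0.50 and 0.38 FPKM. Tmed8, above the minimum here, was at 2 and 0.96 FPKM (-0.61). Tmed10 was at 33.1 and 33.4 FPKM, and Tmed9 at 59.1 and 67.1 FPKM. Tmed3 was at 8.37 and 15.8 FPKM, a change of 0.85 that passed 2-fold under median-ratio scaling, at 1.04. Tmed2 and its partner Tmed10 were thus at unlike ratios, 0.392 and 1.006. The drop of Tmed2 passed 2-fold under all 7 alternatives run, and that of Tmed7 did not under median-ratio scaling.

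COPI, the coatomer that Arf1 recruits to Golgi membranes, was upregulated in 3 of 8 genes in sorted cells, with all 8 above 0 and a median of 0.83. Copz2, the second zeta subunit (chr11:96849870-96861203), was at 5.96 FPKM in negative and 28.7 FPKM in positive cells (2.09). Copa, the alpha subunit, was at 5.30 and 17.9 FPKM (1.58), with exons that overlap those of Ncstn on the other strand (2.80 and 6.31 FPKM), and Copb2, the beta prime subunit, at 21.01 and 54.4 FPKM (1.33). Copb1 stood just inside the limit, at 12.5 and 25.5 FPKM (0.98). The rest, Cope, Copg1, Copg2 and Copz1, had changes from 0.09 to 0.69. Copz1, the common zeta subunit, was at 37.1 and 39.6 FPKM, so the share of Copz2 in the zeta sum went from 13.9% to 42.0%, while the share of Copg2 in the gamma sum was 57.3% and 55.1%.

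With KLF3 overexpression 2 of 8 COPI genes, Copg2 and Copb1, were downregulated and none upregulated. Copg2 was at 23.8 FPKM with GFP and 8.56 FPKM with KLF3 (-1.37), and its share of the gamma sum was 39.5% and 21.7%. It did not pass 2-fold after removal of the trend with genomic span (-0.93). Copz2 was at 24.9 and 14.5 FPKM (-0.75), within 2-fold, with shares of 20.5% and 9.82%. Copb1 was at 35.1 and 16.8 FPKM (-1.03), just past the limit, and did not pass it under median-ratio scaling. Copa (46.0 and 43.1 FPKM), Copb2 (72.9 and 83.5 FPKM), Cope (102 and 126 FPKM) and Copz1 (97.0 and 133 FPKM, 0.45) stayed within 2-fold. The median of the group was -0.16, and 0.16 after removal of the trend with genomic span described below. Copg2 spans 149 kb and its exons overlap those of the imprinted gene Mest on the other strand, which was at 18.1 and 16.6 FPKM.

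**Figure D3:**
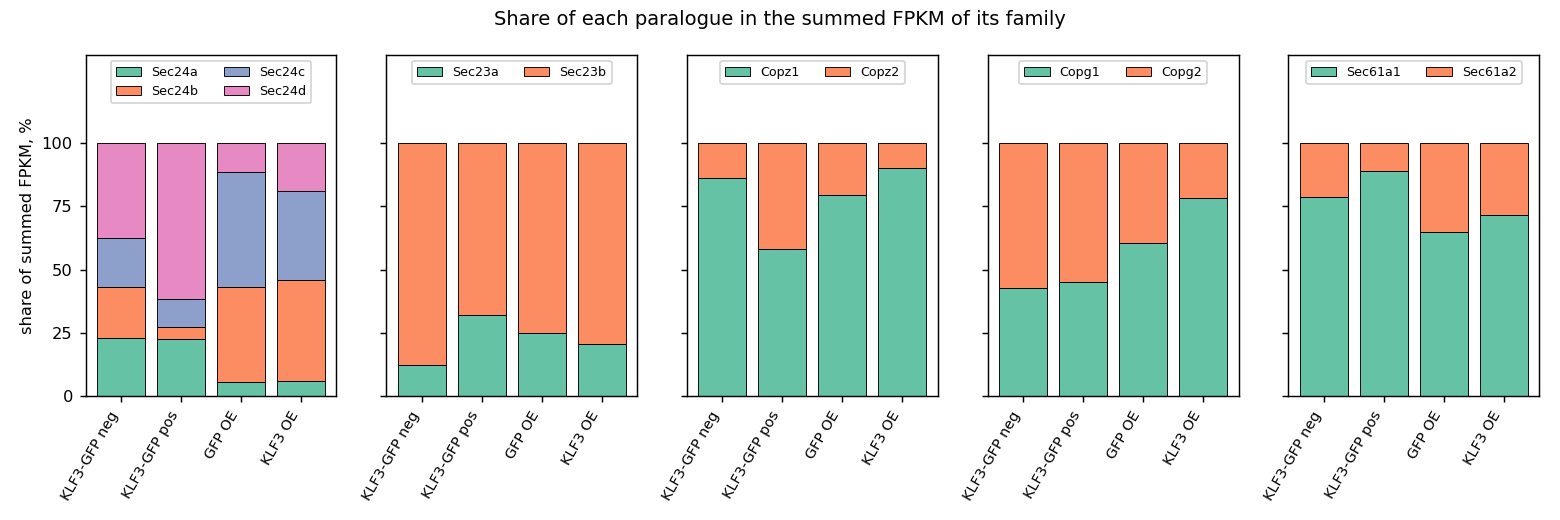
Share of each paralogue in the summed FPKM of its family, in %, for Sec24, Sec23, zeta-COP, gamma-COP and Sec61 alpha genes; each bar is 1 group (neg and pos, KLF3-GFP negative and positive; GFP OE and KLF3 OE, overexpressing cells). Sec24d takes 61.6% of the Sec24 sum and Copz2 42.0% of the zeta-COP sum in positive cells, against 37.7% and 13.9% in negative cells.

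The 6 Arf genes, small GTPases of coat assembly and membrane traffic, all lay above 0 in sorted cells, with a median of 0.87. Arf5 was at 34.8 FPKM in negative and 99.6 FPKM in positive cells (1.49), and Arf2 at 1.62 and 5.46 FPKM (1.30), and these were upregulated. Exons of Arf5 overlap those of Gcc1 on the other strand (0.1 and 0.36 FPKM). Arf1, which starts COPI assembly, was at 136.5 and 256 FPKM (0.90), Arf4 at 46.8 and 84.3 FPKM (0.83), and Arf6, which acts at the plasma membrane, at 22.8 and 31.7 FPKM (0.46). In overexpressing cells no Arf gene passed 2-fold and changes ran from -0.64 for Arf3 to 0.33 for Arf5. Arf1 was at 172 and 142 FPKM (-0.28) and Arf4 at 69.3 and 78.9 FPKM (0.19).

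None of 12 TRAPP genes was upregulated in sorted cells, and the median was -0.07, with 5 of the 12 above 0. Trappc13, a subunit of a larger TRAPP form, was at 36.3 FPKM in negative and 15.8 FPKM in positive cells (-1.15), the only trafficking gene downregulated in sorted cells. Trappc8 was at 0.91 and 2.06 FPKM (0.68), and Trappc1, a core subunit and the most abundant of the group, at 167 and 267 FPKM (0.67). Trappc3 was at 28.3 and 42.6 FPKM (0.57). Trappc4 was at 115 and 89.1 FPKM, but its exons overlap those of the ribosomal gene Rps25 on the other strand, which was at 985 and 908 FPKM, and reads of both genes cannot be told apart without strand. The difference between TRAPP and the coats was not tested, since no replicate values stand behind it.

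In overexpressing cells Trappc8 was at 9.91 FPKM with GFP and 3.98 FPKM with KLF3 (-1.13), the only TRAPP gene past 2-fold. Trappc10, Trappc11 and Trappc12 followed with -0.87, -0.86 and -0.84, and Trappc2 with -0.72. Trappc1 (86.3 and 147 FPKM, 0.76) and Trappc5 (12.1 and 21 FPKM, 0.75) had the highest changes of the group, and 4 of the 13 lay above 0.

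Of the golgins, long coiled-coil tethers of the Golgi, 1 of 6 was upregulated in sorted cells, where levels in negative cells ran from 0.69 to 27.6 FPKM. Golga4, a golgin of the trans-Golgi, was at 3.61 FPKM in negative and 9.53 FPKM in positive cells (1.19). Golga2, the tether of the cis-Golgi, was at 0.69 and 2.24 FPKM (0.94), and its exons overlap those of Swi5 on the other strand, at 1101 and 1114 FPKM. Golga1 was at 3.22 and 1.96 FPKM (-0.51), and Golga3 at 1.62 and 2.64 FPKM (0.47). Golga7, which is named as a golgin but is a partner of a palmitoyltransferase, was at 27.6 and 30.2 FPKM.

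In overexpressing cells the golgins had the lowest median of the 11 groups, -0.76, and all 6 lay below the median of all genes. Golga4 was at 16.0 FPKM with GFP and 3.66 FPKM with KLF3, a change of -1.86 and a ratio of 0.229, the largest drop among the trafficking genes. Golga5, a golgin of the Golgi rims, was at 16.0 and 6.74 FPKM (-1.14), and Golga7 at 78.7 and 44.5 FPKM (-0.81). Golga1 was at 3.67 and 1.87 FPKM (-0.70). Golga4 passed 2-fold under all 7 alternatives run, and Golga5 did not under median-ratio scaling. After removal of the trend with genomic span the median of the golgins was -0.50.

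Among the SNAREs, those of the ER and early Golgi did not pass 2-fold in either experiment, while 2 syntaxins of later compartments were upregulated in sorted cells. Stx7, a syntaxin of late endosomes (chr10:24149317-24188959), was at 5.88 FPKM in negative and 47.5 FPKM in positive cells, a ratio of 8.09 and a change of 2.82, the largest of all 75 on the log2(FPKM + 1) scale, though not by ratio, in which Sec63 led. Stx3, a syntaxin of the apical plasma membrane (chr19:11775119-11819403), was at 4.92 and 35.6 FPKM (2.63). The other 6 of these syntaxins above the minimum had changes from -0.52 for Stx6 to 0.30 for Stx8. Sec22b, which pairs with Stx5a between ER and Golgi, was at 36.8 and 66.9 FPKM (0.84), and Stx5a at 6.42 and 5.27 FPKM (-0.24). Sec22a was at 2.28 and 3.73 FPKM (0.53), and Stx18, of retrograde traffic to the ER, at 8.49 and 10.97 FPKM (0.33).

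With KLF3 overexpression neither Stx7 (8.18 and 9.85 FPKM) nor Stx3 (24.4 and 18.7 FPKM) passed 2-fold. Changes of the 10 syntaxins of later compartments ran from -0.87 for Stx16 to 0.89 for Stx8, and those of the 6 SNAREs of the ER and early Golgi from -0.40 for Sec22a to 0.02 for Sec22b. Their medians, -0.32 and -0.30, were 0.016 and 0.12 after removal of the trend with genomic span. Stx2 was at 4.93 and 2.42 FPKM (-0.79) and Stx6 at 8.45 and 4.67 FPKM (-0.74). Stx18 was at 12.8 and 10.1 FPKM (-0.31), Stx5a at 20.6 and 16.4 FPKM (-0.31) and Sec22c at 1.94 and 1.40 FPKM (-0.29). Of the genes outside the complexes, Sec14l1 was at 4.06 and 3.15 FPKM in sorted cells and 20.2 and 20.4 FPKM in overexpressing cells, where Sec14l2 was at 5.41 and 2.79 FPKM (-0.76) and Sec14l4 at 1.46 and 0.68 FPKM (-0.55).

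**Figure D4:**
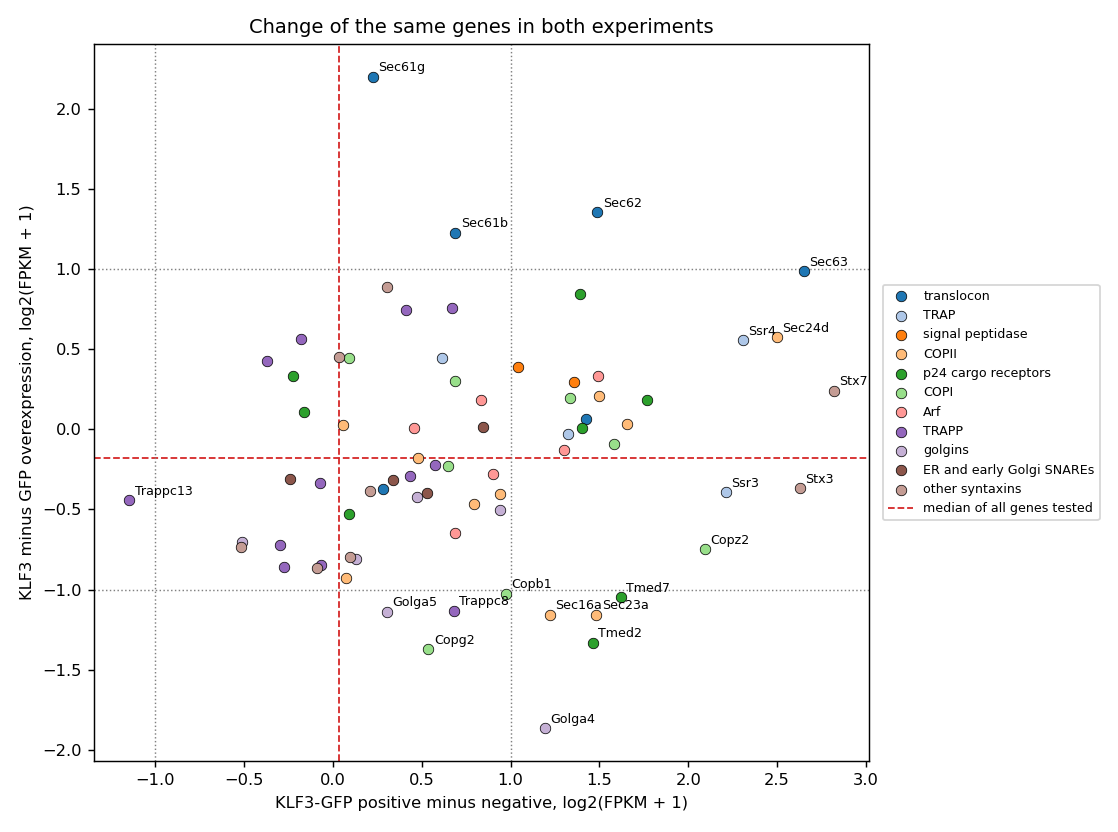
Change of log2(FPKM + 1) of the 74 genes of the 11 groups above the minimum in both experiments, in sorted cells (horizontal) and overexpressing cells (vertical), coloured by complex, with dotted lines at 2-fold and dashed lines at the median of all genes. Sec62 alone lies past 2-fold up in both, and Sec16a, Sec23a, Tmed2, Tmed7 and Golga4 lie past 2-fold up in sorted and down in overexpressing cells.

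Over both experiments, 75 trafficking genes were above the minimum. Of the 26 upregulated in sorted cells, 1 (Sec62) was upregulated with KLF3 overexpression and 20 passed 2-fold in neither direction. The other 5 (Sec16a, Sec23a, Tmed2, Tmed7 and Golga4) were downregulated. Of those 5, Tmed2 and Golga4 were downregulated under all alternatives run. Over all 11179 genes of the overexpression experiment, 6.6% were upregulated and 10.1% downregulated. The same split was not counted over all genes upregulated in sorted cells, so these counts are not set apart from those of other genes. Across the 75 genes the changes of both experiments had a Pearson r of 0.14 and a Spearman rho of 0.16, against 0.21 and 0.08 over 8887 genes. The genes share the libraries of each experiment, so these are descriptions.

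Changes in the overexpression experiment went with the length of the gene in the genome. Across all 11179 genes, change and the logarithm of genomic span had a Pearson r of -0.37 and a Spearman rho of -0.40, and across the 83 trafficking genes -0.34 and -0.32. Of the 29 trafficking genes spanning under 20 kb, 2 were upregulated and 1 downregulated, with a median of 0.06. Over all genes of that span 10.5% were upregulated and 5.33% downregulated, with a median of 0.12. Of the 54 trafficking genes of 20 kb or more, 1 was upregulated and 8 downregulated, with a median of -0.37. Over all genes of that span 3.08% were upregulated and 14.5% downregulated, with a median of -0.41. In sorted cells no such relation appeared among the members, with an r of -0.00. There 10 of 28 shorter and 16 of 47 longer trafficking genes were upregulated, against 13.2% and 14.3% of all genes of those spans. After removal of the trend, 2 trafficking genes were downregulated in overexpressing cells, Golga4 (-1.38) and Tmed2, and 6 were upregulated. Over all genes 5.26% were then downregulated and 7.1% upregulated.

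**Figure D5:**
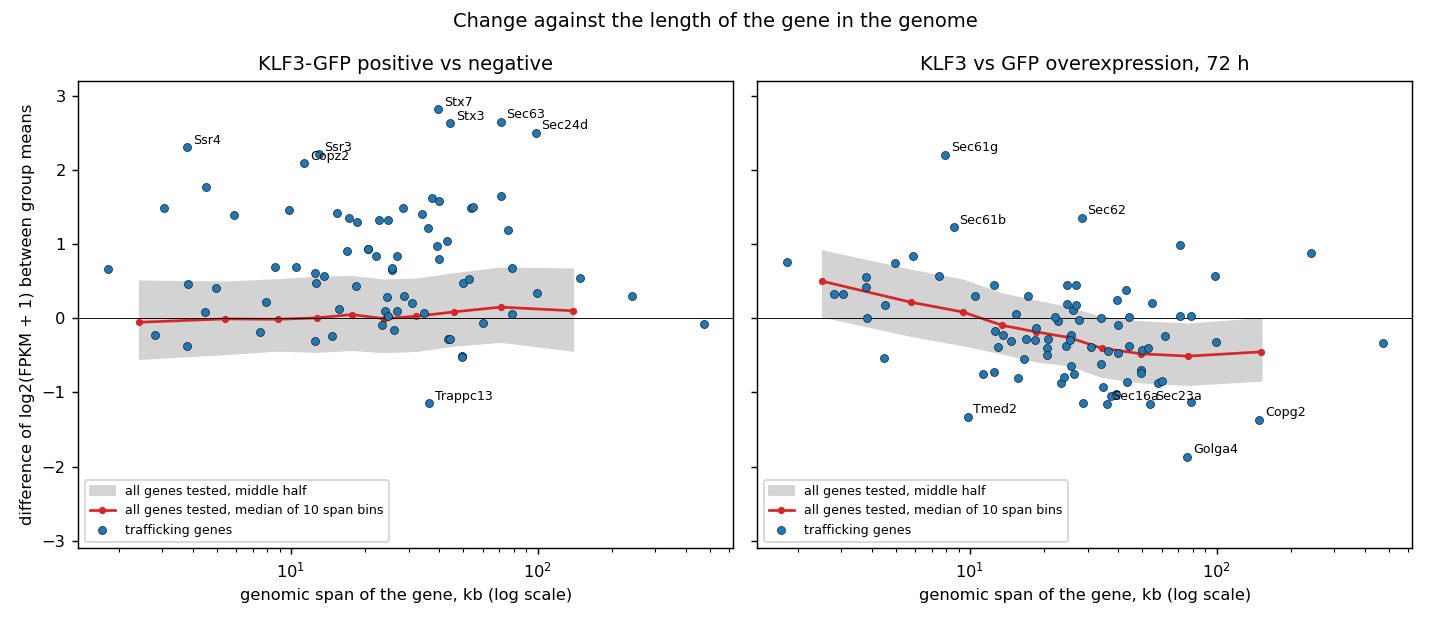
Change of log2(FPKM + 1) against the genomic span of the gene in kb (log axis) in sorted cells (left) and overexpressing cells (right), with blue points for trafficking genes, a red line for the median of all genes in 10 bins of span and a grey band for the middle of their distribution, from the lower to the upper quartile. In overexpressing cells the red line falls with span and the trafficking genes follow it; in sorted cells the line stays near 0 and most trafficking genes lie above it.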

How the data were processed

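RNA-seq was done by the authors on 8 samples in 4 groups of 2. Reads were aligned to mm10 with STAR (2.6.0) and FPKM computed with Cufflinks (2.2.1), per the submitters' processing notes. The authors deposited, for each experiment, FPKM of protein-coding genes in 2 columns, each the mean of 2 replicates, rounded to 2 decimals, with 0.1 as the lowest value; 0 columns were left out. Depth is unknown, and whether counting used strand is not given in the sources used here. Samples were grouped by their labels. Changes were differences of log2(FPKM + 1), with no test, for genes averaging 1 FPKM or more, called past 2-fold.

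The genes and lists were chosen with earlier results of these data known. Named were, per complex and experiment, the 4 members with the largest absolute change, all members that were downregulated, paralogues and members at the lowest value. From the list of other pathway genes, the 4 with the largest change in each experiment were named, and from the secretory transcription factors those with a mean of at least 1 FPKM. Other members were named to complete a complex, after their values were seen, and a member that the rule names is not reported here. Coordinates (mm10) were read from the deposited loci, with 1 added to the start, and overlapping exons came from GENCODE M21. Promoter windows were those of RefSeq on GRCm38.p6. Alternatives were another pseudocount (0.1), a plain floor of 0.1, no minimum, a minimum of 5 FPKM, median-ratio scaling, quantile normalization and removal of a lowess trend (fraction 0.3) with genomic span. Scripts (Python 3.11.15, pandas 2.3.3, statsmodels 0.14.6) were tested on simulated data. Protein sequences were not used here.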

Additional observations from a re-analysis of the deposited data

How the results depend on the processing

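No paired analysis was possible because the columns are means of the replicates of a group, and for the same reason leaving out a replicate could not be run. The spread between replicates and the counting error of low genes such as Sec16a and Sec24b remain unknown. In sorted cells, 22 of the 26 upregulated genes and Trappc13 passed 2-fold under all 7 alternatives run, and Arf2, Sec16a and Sec24a under the 6 that kept them (they were left out at a mean of at least 5 FPKM); Sec11a did not with quantile normalization or removal of the span trend. In overexpressing cells Sec61g, Sec62, Golga4 and Tmed2 passed under all 7, and Copb1, Golga5, Sec16a, Sec23a, Tmed7 and Trappc8 did not under median-ratio scaling, quantile normalization or removal of the span trend, Sec61b not with quantile normalization (0.90) and Copg2 not after removal of the span trend (-0.93). Median-ratio scaling gave 6 members up and 3 down, where 10.4% and 6.22% of all genes were. Quantile normalization gave 4 up and 3 down, where 7.23% and 6.25% of all genes were. Removal of the span trend gave 6 up and 2 down, where 7.1% and 5.26% of all genes were. For the other genes of the pathway in overexpressing cells, 2 were up and 4 down without these steps. Median-ratio scaling gave 2 down, quantile normalization 2 down and 0 up, and removal of the span trend 1 down and 0 up. The shares of all genes in these 3 settings are those just given. Removal of the span trend moved the medians of COPI to 0.16, of the ER and early Golgi SNAREs to 0.12, of the golgins to -0.50, of the other syntaxins to 0.016 and of the signal peptidase to 0.63, with a change of sign for COPI and both groups of SNAREs. The 3 genes outside the complexes in overexpressing cells had a median of -0.93 with a pseudocount of 0.1, -0.96 with the floor, -0.27 with no minimum and 0.014 with a mean of at least 5 FPKM. In sorted cells the median of COPII was 1.43 with a pseudocount of 0.1, 1.47 with the floor and 1.48 with a mean of at least 5 FPKM, which also gave 0.66 for the golgins and 1.42 for the translocon, and the median of the p24 genes was 0.91 with no minimum. The cause of these shifts was not tested.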

Other observations

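Other genes of the early secretory pathway, 65 in a list of partners that the symbols above do not catch, were upregulated in 21 of 58 above the minimum in KLF3-GFP positive cells and downregulated in 0, with a median of 0.70. Over all genes 13.8% were upregulated and 8.32% downregulated, with a median of 0.03. Some of the 21 reached the minimum only through their level in positive cells. Surf4, an ER cargo receptor, was at 16.8 FPKM in negative and 85.4 FPKM in positive cells (2.28). Bet1, a SNARE of ER-to-Golgi traffic, was at 35.4 and 145 FPKM (2.0). Srprb, the membrane anchor of the signal recognition particle receptor, was at 3.49 and 14.2 FPKM (1.76), and Kdelr3, a retrieval receptor for ER proteins, at 59.2 and 200 FPKM (1.74). Cargo and retrieval receptors were upregulated in 7 of 14 genes (median 1.11), the signal recognition particle and its receptor in 1 of 7 (0.41) and the COG tether of the Golgi in 0 of 6 (0.08). With KLF3 overexpression, 2 of 63 were upregulated (Ergic3 and Spcs1, both with 1.03), against 6.6% of all genes. Downregulated were 4, against 10.1% of all genes: Golph3 (-1.45), Cog5 (-1.39), Golgb1 (-1.18) and Cog6 (-1.15). The median was -0.03, beside -0.18 over all genes.

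Of the transcription factors known for control of secretory pathway genes or of the unfolded protein response, 6 of 9 above the minimum were upregulated in sorted cells. Over all genes 13.8% were. Creb3l2 and Atf6 reached the minimum only through their level in positive cells, so the filter favoured counting them as upregulated. Creb3 was at 5.12 FPKM in negative and 22.5 FPKM in positive cells (1.94), Creb3l2 at 0.18 and 2.77 FPKM (1.68), Xbp1 at 14.4 and 43.6 FPKM (1.54), Atf6 at 0.65 and 2.97 FPKM (1.27), Ddit3 at 9.48 and 20.96 FPKM (1.07) and Creb3l1 at 1.36 and 3.73 FPKM. Creb3l1 stood at the limit, with a change of 1.0. The other 3 did not pass 2-fold: Atf4 was at 24.4 and 23.0 FPKM (-0.08), Atf6b at 2.89 and 2.47 FPKM (-0.16) and Creb3l4 at 1.27 and 1.44 FPKM (0.10). With KLF3 overexpression 0 of 9 passed 2-fold, where 6.6% of all genes were upregulated and 10.1% downregulated. Creb3, at 7.28 and 15.2 FPKM (0.97), came closest. The others ran from Atf6, at 4.28 and 2.39 FPKM (-0.64), to Ddit3, at 23.3 and 30.7 FPKM (0.38), with Atf4 (-0.29), Atf6b (-0.21), Xbp1 (-0.17), Creb3l4 (0.27), Creb3l2 (0.30) and Creb3l1 (0.38) between them. FPKM of these genes says nothing of splicing or cleavage, by which several of their proteins are activated.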
